A study of Mus musculus with 2 samples.

Results

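Cluster 20 of the embryonic day 13.5 (E13.5) library was a small set of blood-derived cells in the mouse mandibular prominence, the tissue that forms the lower jaw and tongue. The authors named it mast cells. Its cells were taken by the authors' deposited cluster number, which gave 73 of the 6318 E13.5 cells (1.16%, 0.907 to 1.45%) and of the 13417 cells in both libraries. The data went against the name for most of them: 49 cells carried a macrophage profile, 11 a mast cell profile and 4 an osteoclast profile, and 9 could not be placed. The cells are therefore called cluster 20 here.

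Mandibles of wild-type CD1 embryos from timed matings were dissected at E13.5 and at E11.5, and 12.5 mg of tissue per stage was dissociated with a Bacillus licheniformis protease for 10 minutes in the cold, at 5 mg/ml for E13.5 and 3 mg/ml for E11.5. Droplet-based 10x RNA sequencing gave 1 library per stage, so stage, library and protease concentration cannot be told apart. No source used here gives how many embryos, of which litter or sex, were taken. Cluster 20 was set against the other 6245 cells of the E13.5 library, and E11.5 cells were used only for the stages. Counts are of UMIs (unique molecular identifiers, each marking a captured transcript): 67838169 at E13.5, where the median cell had 9280, and 49913485 in the 7099 cells of E11.5, where the median cell had 6231. With 1 library a stage there is no test and no p-value. All intervals are 95% intervals of counting error only, and the authors clustered the cells on these same counts, so levels in cluster 20 against the rest are a description.

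Macrophages seed embryonic tissues from yolk sac and fetal liver progenitors, engulf dying cells and depend on the receptor encoded by Csf1r. Mast cells arise from other progenitors of the same sources, depend on the receptor Kit, and store proteases, histamine and heparin in granules. Osteoclasts, which resorb bone, form from macrophage-lineage precursors. All 3 cell types can carry the signalling adaptors encoded by Fcer1g and Tyrobp, so these adaptors alone do not tell them apart.

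The cells were classed by the UMIs of 3 marker sets (the macrophage list, the mast cell list without Hpgds, Mitf, Cyp11a1 and Slc6a4, and the osteoclast list), with at least 20 UMIs of a set needed, a limit chosen after the values were seen. The levels of these genes by class were therefore fixed by the classing and are given as a description. A class cut from such a sum is a range and not a type, and few cells lay near the limit: the highest leading sum among unassigned cells was 16, the lowest among assigned cells was 38, and 3 cells lay between 10 and 30. Mast cell markers summed to 38 to 341 UMIs in each mast-like cell (median 122) and to 0 or 1 in each macrophage-like cell. Macrophage markers summed to 0 to 18 UMIs in the mast-like cells (median 2) and to 39 to 349 in the macrophage-like cells (median 174). No cell reached 20 UMIs of both of these sets. The 4 osteoclast-like cells had 93 to 479 UMIs of osteoclast genes, against 0 to 7 in the macrophage-like cells, and 2 of them also passed 20 UMIs of macrophage markers. Outside cluster 20 the highest sums were 10 for macrophage and 8 for mast cell markers, so no such cell was found elsewhere in the E13.5 library. For osteoclast genes 2 cells outside reached 20 UMIs, 1 of mesenchyme and 1 of endothelium.

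**Figure D1:**
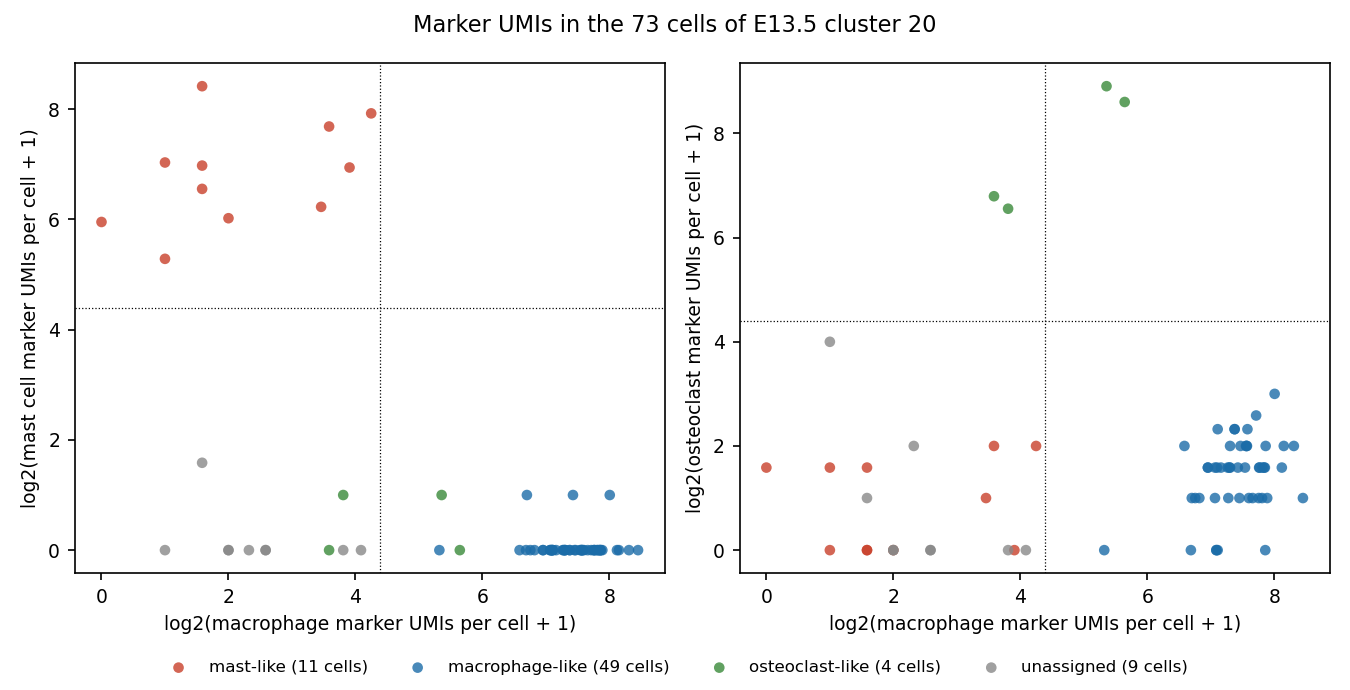
Each point is a cell of cluster 20, with the UMIs of macrophage markers on the x axis and of mast cell markers (left) or osteoclast markers (right) on the y axis, all as log2(UMIs + 1); dotted lines mark 20 UMIs. The 11 mast-like, 49 macrophage-like and 4 osteoclast-like cells lie apart, and the 9 unassigned cells lie low on every axis.

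The mast-like cells made up 15.1% of cluster 20 (7.77 to 25.4%), the macrophage-like cells 67.1% (55.1 to 77.7%), the osteoclast-like cells 5.48% (1.51 to 13.4%) and the unassigned cells 12.3% (5.80 to 22.1%). Median depth was 17914 UMIs in the mast-like cells, 17706 in the macrophage-like cells, 22758.5 in the osteoclast-like cells and 3168 in the unassigned cells. Over all of cluster 20 the median was 16558 UMIs, against 9231 in the rest. Doublets were kept. Genes of the surrounding tissues were low in cluster 20: the highest sum in a macrophage-like cell was 44 UMIs over 6 mesenchyme genes, 10 over 5 epithelial genes and 7 over 6 muscle genes, and all 5 Schwann cell genes were at 0 in the 73 cells.

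For each gene, UMIs were summed over the cells of a group and scaled to 1000000 (CPM). A gene was counted as higher in cluster 20 when it had at least 10 UMIs in the library, a level at least 4-fold that of the rest and an interval that excluded 1, and as lower when at least 10 UMIs were expected in cluster 20 and its level was at most 0.25 of the rest. This is a rule of size and not a test. By it 1013 of 15909 genes (6.37%) were higher and 1268 of 8323 (15.2%) were lower. Every count below of list genes higher or lower in cluster 20 is to be read beside these shares, and some lists have few measured genes. The lists were chosen with earlier results of these data known. A gene found nearly only in cluster 20 reaches 10 UMIs through it alone, so the minimum nearly fixes its call as higher. The counts of list genes are therefore a description and no support for a cell type. Of 16 leukocyte genes shared by these cell types 15 were higher and 0 lower, of 16 macrophage genes 15 were higher and 1 lower, and of 12 measured mast cell genes 12 were higher and 0 lower. Summed macrophage genes stood at 7380 CPM in cluster 20 and 51.3 CPM in the rest, a ratio of 144 (138 to 150). Summed mast cell genes stood at 1573 CPM in cluster 20 and 12.5 CPM in the rest, a ratio of 126 (116 to 137). The median log2 ratio was 10.18 for the shared, 10.07 for the macrophage and 6.95 for the mast cell genes, beside 0.08 over all genes measured.

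The shared leukocyte genes ran through every class. Fcer1g, the signalling chain of several Fc receptors, had 2754 UMIs in 71 cells of cluster 20 and 139 UMIs in the rest, a ratio of 1079 (910 to 1289). Per cell it had 4 to 30 UMIs in the mast-like cells (median 11) and 4 to 92 in the macrophage-like cells (median 50). Tyrobp, the adaptor also called DAP12, had 2215 UMIs in 72 cells, against 92 in the rest. It ranged over 1 to 32 UMIs per mast-like cell (median 11) and 5 to 69 per macrophage-like cell (median 36), and the 4 osteoclast-like cells had 115, 53, 20 and 31. Both adaptors were thus found in all 11 mast-like and all 49 macrophage-like cells. Spi1, which encodes the myeloid transcription factor PU.1, had 15 UMIs in 8 mast-like cells and 312 in 47 macrophage-like cells, and 63 in the osteoclast-like cells. Rac2, a leukocyte GTPase, was at 977 CPM in the mast-like and 638 CPM in the macrophage-like cells (1.53-fold, 1.30 to 1.80). Ptprc, the leukocyte common antigen CD45, had 91 UMIs in 47 cells of cluster 20 and 3 in the rest, a ratio of 1653 (548 to 8162).

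The macrophage genes described next are those the macrophage-like class was cut on, so their place in that class is no finding. C1qa, C1qb and C1qc encode the chains of complement C1q and lie side by side on chromosome 4 (GRCm38, C1qa 136895917 to 136898803, C1qb 136880129 to 136886187, C1qc 136889804 to 136893065, all on the minus strand). C1qa had 0 UMIs in the mast-like cells and 1152 UMIs in 46 macrophage-like cells, with 0 to 67 per cell (median 22). C1qb had 0 and 1883 UMIs in these classes, with 0 to 83 per macrophage-like cell (median 37), and C1qc 0 and 1419 UMIs. All 3 were also at 0 in the 4 osteoclast-like cells. Over all of cluster 20 the ratios to the rest were 1369 (1020 to 1881), 1392 (1103 to 1781) and 1687 (1258 to 2314) for C1qa, C1qb and C1qc.

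Csf1r, the receptor for the growth factors Csf1 and Il34, had 0 UMIs in the mast-like cells, 402 in the macrophage-like cells (1 to 24 per cell, median 7) and 46 in the osteoclast-like cells. It was at 468 CPM in the macrophage-like and 483 CPM in the osteoclast-like cells. Of the 16 macrophage genes 8 had UMIs in the osteoclast-like cells, 113 in all, of which 60 were of Cd68, a lysosomal membrane protein, and 46 of Csf1r. Adgre1, which encodes the F4/80 antigen, had 154 of its 156 UMIs in the macrophage-like cells, and Fcgr1, the high-affinity IgG receptor, had all of its 342 UMIs there, in all 49 cells. Fcgr3, a low-affinity IgG receptor, was shared: it had 63 UMIs in 10 mast-like cells and 580 in the 49 macrophage-like cells, 309 and 675 CPM. Maf, a transcription factor of resident macrophages, had 0 UMIs in the mast-like cells and 386 in the macrophage-like cells.

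The shares of cells with a UMI differed widely between cluster 20 and other cells. After every cell was thinned to 2000 UMIs, which kept 70 cells of cluster 20 and 5827 of the rest, Fcer1g was found in 63 of the 70 cells (80.5 to 95.9%) and 0.463% of the rest. Tyrobp was found in 92.9% (84.1 to 97.6%) and 0.275%, C1qb in 64.3% (51.9 to 75.4%) and 0.223%, C1qa in 58.6% (46.2 to 70.2%) and 0.154%, and Csf1r in 48.6% (36.4 to 60.8%) and 0.0858%. Cpa3, a mast cell protease, was found in 15.7% (8.11 to 26.4%) and 0.0515%. In erythroid cells, which should lack them, Fcer1g and Tyrobp were each found in 0.485% and the other 4 in 0 of 206 cells, which allows up to 1.46%. Median depth before thinning was 16558 UMIs in cluster 20 and 18517 in erythroid cells. Without thinning the shares in cluster 20 were 97.3% for Fcer1g, 98.6% for Tyrobp, 71.2% for C1qb, 67.1% for C1qa, 74.0% for Csf1r and 15.1% for Cpa3.

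**Figure D2:**
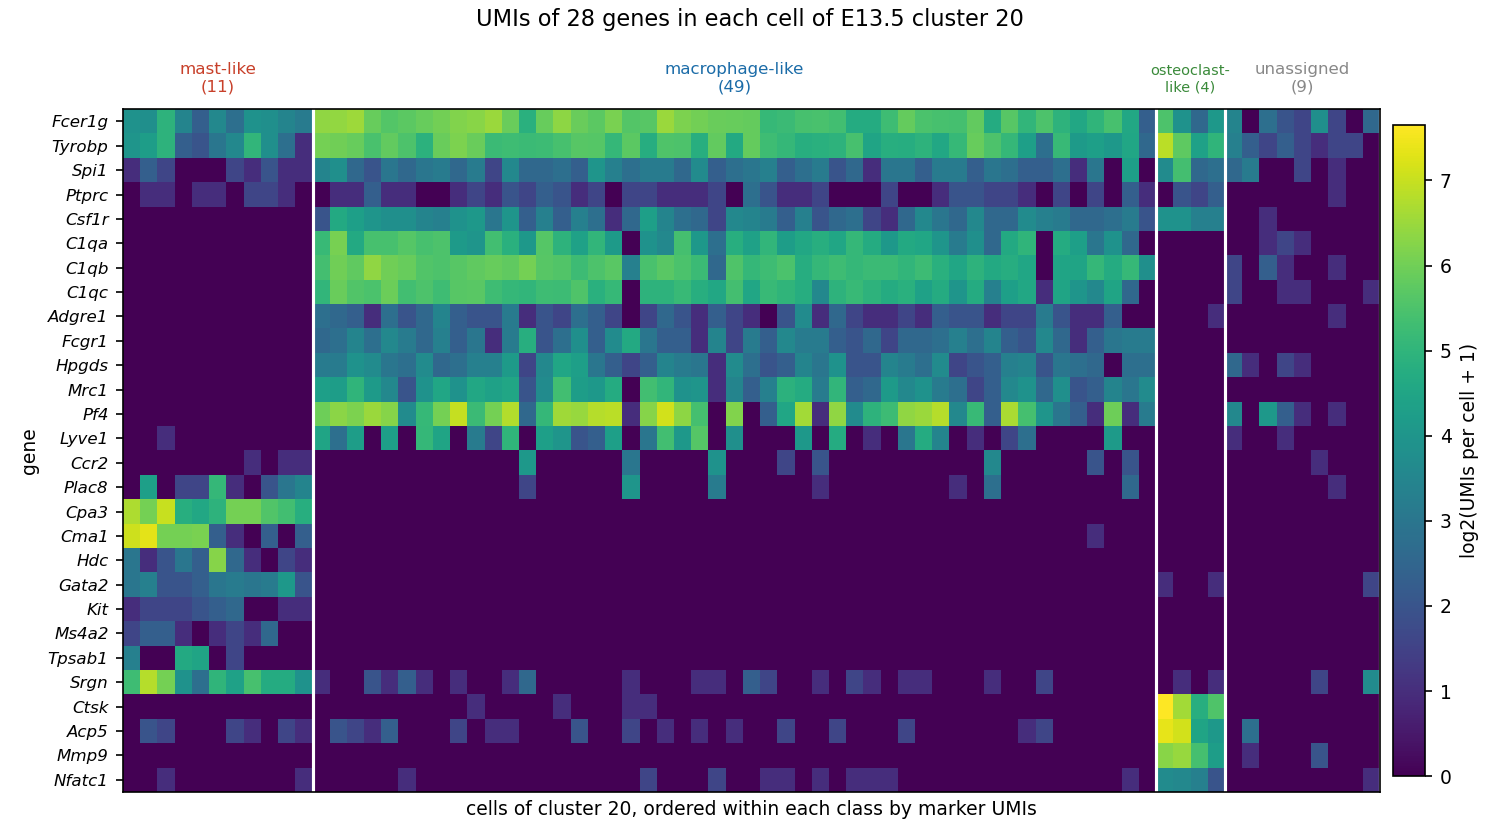
Each column is a cell of cluster 20, grouped by class and ordered within it by its marker UMIs, each row a gene, and the colour is log2(UMIs per cell + 1). Fcer1g and Tyrobp run across the classes, C1qa, C1qb and C1qc fill the macrophage-like columns and are at 0 in the 11 mast-like and 4 osteoclast-like columns, and Cpa3 is found in the mast-like columns only.

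The mast cell list had 1511 of its 1923 UMIs in the 11 mast-like cells, 386 in the macrophage-like cells and 14 in the osteoclast-like cells. Cpa3, Gata2, Kit, Ms4a2 and the other classing genes are described first, and their place in the mast-like class restates the classing. Cpa3, a carboxypeptidase of mast cell granules (chromosome 3, 20215620 to 20242181, minus strand), had 618 UMIs, all in these cells, at 23 to 127 per cell (median 47), and 0 in the other 62 cells of cluster 20. The rest of the library had 23 UMIs of it, so the ratio of cluster 20 to the rest was 1464 (967 to 2327). Gata2, a transcription factor mast cells require, was also found in all 11 cells, at 3 to 16 UMIs each, and at 0 in the macrophage-like cells. Kit, the receptor for stem cell factor, had 21 UMIs in 9 mast-like cells and 0 in the macrophage-like cells. Ms4a2, the beta chain of the IgE receptor, had 20 UMIs in 8 mast-like cells, and its 0 UMIs in the rest make its level in cluster 20 at least 363-fold higher, against a floor of 3 UMIs over the group.

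The granule proteases differed from cell to cell among the mast-like cells. Cma1, a chymase (chromosome 14, 55941451 to 55944675, minus strand), had 133, 160, 66, 65 and 68 UMIs in 5 cells and 0 to 4 in the other 6. The tryptases Tpsab1 and Tpsb2, neighbours on chromosome 17, had 56 UMIs in 4 cells and 79 UMIs in 2 cells, and 78 of the Tpsb2 UMIs were in 1 cell. Their sequences are alike, so reads may have been split between them. Hdc, which makes histamine, had 0 to 7 UMIs in 10 cells and 76 in the other. The 5 cells with much Cma1, a split chosen after the values were seen, held 133 tryptase UMIs, 0 of Nkg7 and 22 of Ifitm1 in 93040 UMIs. All 22 were in 1 cell, the haemoglobin-rich cell described below. The 6 cells with little Cma1 held 2 tryptase UMIs, 27 of Nkg7, a granule protein of cytotoxic cells, and 199 of Ifitm1, an interferon-induced membrane protein, in 110663 UMIs. Both Nkg7 and Ifitm1 were found in all 6, unevenly: 95 UMIs of Ifitm1 were in 1 cell and 58 in another, and 12 of Nkg7 in 1 cell. How many other genes differ as much between these cells was not counted. Cd3g, a chain of the T cell receptor complex, was found on both sides, with 12 UMIs at much Cma1 and 38 at little.

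A mast-like cell with 66 UMIs of Cma1 held 18114 haemoglobin UMIs among its 37928, or 47.8%, the highest depth in cluster 20, while the other 10 held 10 to 62. Whether it was 2 cells in a droplet was not tested. Without it the other 10 cells still had 491 UMIs of Cpa3 in 165775 UMIs.

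Hpgds, the haematopoietic prostaglandin D synthase, stood on the mast cell list and did not follow it. It had 0 UMIs in the mast-like cells and 369 in 48 macrophage-like cells, at 0 to 22 per cell (median 7), with 350 in the rest of the library. Its ratio in cluster 20 to the rest was 58.8 (50.7 to 68.2). Because of this gene the summed mast cell list was still 36.1-fold above the rest when only the macrophage-like cells were taken. The other genes of the list with UMIs in macrophage-like cells were Mitf (14 UMIs), Il1rl1 (2) and Cma1 (1).

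**Figure D3:**
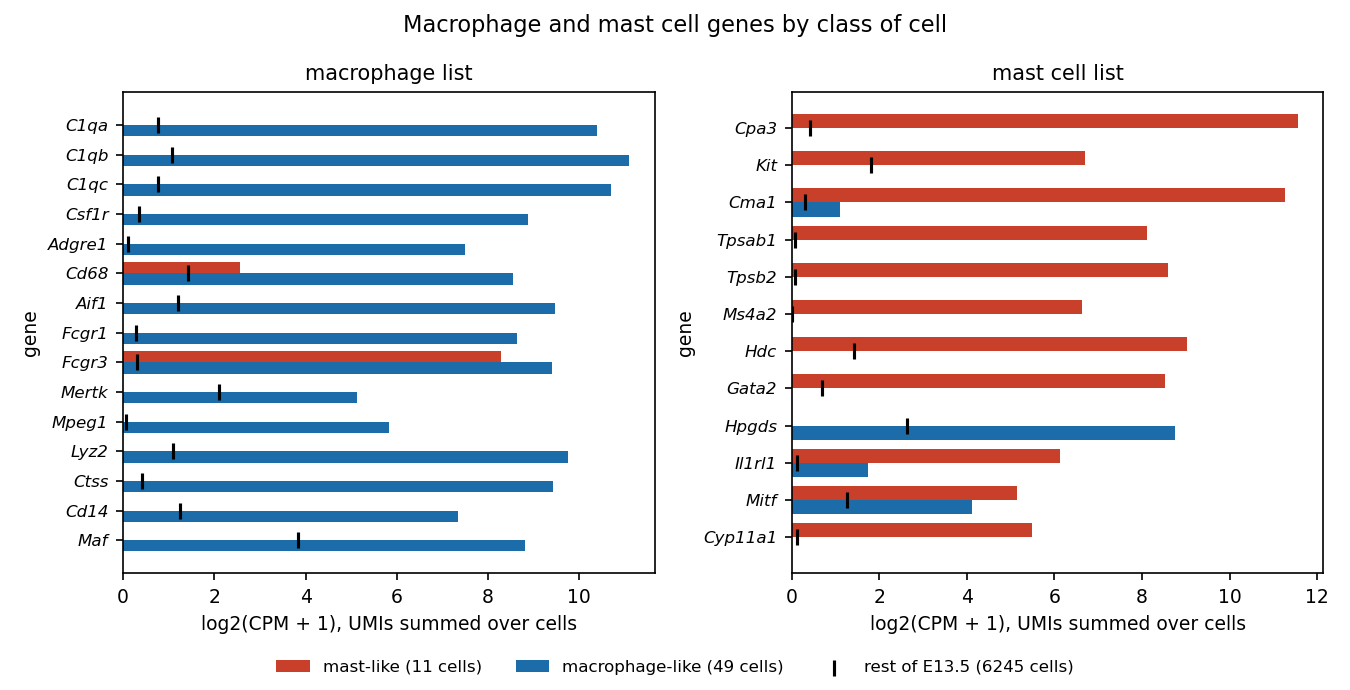
Bars give log2(CPM + 1) of summed UMIs for the genes of the macrophage list (left) and mast cell list (right) that were counted as higher in cluster 20 in the 11 mast-like and 49 macrophage-like cells, and black ticks give the 6245 other E13.5 cells. Of the macrophage genes shown only Fcgr3 and Cd68 have a mast-like bar, and Hpgds is the mast cell gene with a macrophage-like bar alone.

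Between the mast-like and the macrophage-like cells, 210 of 7245 genes (2.9%) were at least 4-fold higher in the mast-like cells and 267 of 2581 (10.3%) at least 4-fold lower by the same rule. The genes below were not used in the classing. Of the 12 leading genes of the mast-like cells by ratio to the other cells of cluster 20, Srgn, the proteoglycan core that binds granule proteases, was at 1919 CPM in the mast-like cells (6 to 110 UMIs per cell, median 25) and 40.8 CPM in the macrophage-like cells (0 to 5 per cell), 47.1-fold higher (33.3 to 68.6). Hs3st1, a heparan sulfate sulfotransferase, had 83 UMIs in 11 mast-like cells and 5 in 5 macrophage-like cells, 70.0-fold higher in CPM (28.8 to 221). Rab27b, a GTPase of granule secretion, had 33 UMIs over all 11 mast-like cells and 0 in the macrophage-like cells, and Ptprcap, a partner of CD45, had 79 and 0. The others were Ifitm1 (221 and 7 UMIs), Mns1 (82 and 0), Cd3g (50 and 0), Slc45a3 (42 and 2), Smpx (39 and 1), Slc22a3 (28 and 0), Clec12b (26 and 0) and Fam129a (21 and 1), which share no list. Of the 12 leading genes of the macrophage-like cells by the same rule, 3 were on no list, namely Ms4a6c (462 UMIs), Fcgrt, the neonatal Fc receptor (333), and Ms4a6b (275). The other 9 were Pf4, Mrc1, Fcrls, Stab1, F13a1, Lyve1, Ccl24, Trem2 and P2ry6, a receptor for UDP (200).

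The promoters of a macrophage-side gene and of the mast-side genes Cpa3 and Ms4a2 are printed because PU.1, encoded by Spi1 and found in both classes, and GATA factors such as that of Gata2, found in the mast-like cells, are known to bind stretches like GAGGAAGT and AGATAA. All 3 promoters printed carry a match, which most genes of their lists do not, so they are not typical of those lists. Shown are the 250 bases before each RefSeq start on GRCm38.p6, 5′ to 3′ on the gene's strand, with a match to either motif on either strand in capitals. Pf4 lies at chr5:90772185-90772434 (plus strand), Cpa3 at chr3:20242182-20242431 (minus strand) and Ms4a2 at chr19:11623720-11623969 (minus strand).
Pf4: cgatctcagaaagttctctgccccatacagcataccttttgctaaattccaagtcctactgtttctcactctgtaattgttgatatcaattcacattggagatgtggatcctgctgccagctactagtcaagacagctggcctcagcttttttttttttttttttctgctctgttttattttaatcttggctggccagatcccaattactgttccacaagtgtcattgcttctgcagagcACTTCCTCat
Cpa3: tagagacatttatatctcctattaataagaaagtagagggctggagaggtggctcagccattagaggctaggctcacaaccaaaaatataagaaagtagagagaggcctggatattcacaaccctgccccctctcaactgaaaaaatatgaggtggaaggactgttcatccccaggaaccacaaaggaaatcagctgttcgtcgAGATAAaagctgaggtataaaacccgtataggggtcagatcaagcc
Ms4a2: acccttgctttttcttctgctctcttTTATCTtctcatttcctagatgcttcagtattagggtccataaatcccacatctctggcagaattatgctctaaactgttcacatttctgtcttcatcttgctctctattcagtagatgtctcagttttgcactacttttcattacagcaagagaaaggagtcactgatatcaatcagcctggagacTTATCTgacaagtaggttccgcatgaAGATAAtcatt
In Pf4 the capitals are GAGGAAGT read from the opposite strand, beginning 10 bases before the start. In Cpa3 AGATAA begins 46 bases before the start. Ms4a2 has AGATAA at 11 bases and its opposite strand at 37 and 224 bases before the start. Over windows of 250 bases before to 50 after the start, GAGGAAGT was in 997 of 27025 genes (3.69%), 2 of 10 macrophage genes with a promoter in the table, 3 of 12 resident macrophage genes, 2 of 11 shared leukocyte genes, 1 of 17 mast cell genes and 0 of 5 osteoclast genes. AGATAA was in 3432 of 27025 genes (12.7%), 5 of 17 mast cell genes, 4 of 11 shared leukocyte genes, 1 of 5 osteoclast genes, 1 of 10 macrophage genes and 1 of 12 resident macrophage genes, which is Pf4, with a match after the start. The motifs share no overlap as searched, and a match is a stretch of letters and not evidence of binding.

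The 4 osteoclast-like cells were chosen by the osteoclast list itself, so high levels of its genes there restate the choice, and the values show which of them were present. Ctsk, the collagen-degrading cathepsin K, had 200, 96, 27 and 46 UMIs in them, 0 UMIs in the mast-like cells and 4 in the macrophage-like cells. Acp5, the tartrate-resistant phosphatase, had 165, 139, 21 and 16 UMIs, and Mmp9, a matrix protease, had 78, 87, 41 and 18. Nfatc1, the transcription factor that drives osteoclast formation, had 12, 11, 9 and 3, and the fusion gene Dcstamp 17 UMIs over these cells and 1 in the other 69. Csf1r had 14, 14, 9 and 9 UMIs, whereas the C1q genes, Cx3cr1 and Lyve1 were at 0 in all 4. Ctsk is also a mesenchymal gene: after thinning it was found in 4 of 4 osteoclast-like cells, and in 499 of 3826 mesenchyme cells, so its summed ratio to the rest was 8.05 (7.21 to 8.98). Mmp9, with 228 UMIs in cluster 20 and 126 in the rest, had a ratio of 98.6 (79.0 to 124). Tnfrsf11a, the receptor RANK through which osteoclasts are induced, had 7 UMIs in the osteoclast-like cells and 48 in 32 macrophage-like cells, while Calcr, the calcitonin receptor, was at 0 in cluster 20.

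Of the 9 unassigned cells, 5 had under 4000 UMIs, with marker sums of 3 to 13. The other 4 had 6017 to 34427 UMIs, with sums of 2 to 16, and the part of depth in these sums was not tested. The median mitochondrial share of the 9 unassigned cells was 0.162%, beside 2.79% in all of cluster 20. With a limit of 0.1% of a cell's UMIs in place of 20 UMIs, added after seeing the data, the classes held 11 mast-like, 54 macrophage-like and 5 osteoclast-like cells. The 9 cells unassigned at 20 UMIs held 26 UMIs of Tyrobp and 41 of Fcer1g. A cell with 6947 UMIs had 62 UMIs of Cd52, a lymphocyte and monocyte surface antigen, and 1 with 34427 UMIs had 20 UMIs of the megakaryocyte list.

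Genes of other leukocytes were above the rest in part and rested on few UMIs. By the 4-fold rule 2 of 2 basophil genes, 5 of 5 monocyte genes, 3 of 4 T, NK and innate lymphoid genes, 2 of 3 B cell genes, 4 of 5 megakaryocyte genes and 1 of 2 neutrophil genes were higher, on 53, 332, 176, 320, 35 and 47 UMIs of the lists in cluster 20. The monocyte list had 142 UMIs in the macrophage-like, 86 in the mast-like and 86 in the osteoclast-like cells. In the osteoclast-like cells all 86 were of S100a4. Of the basophil genes, Prss34 had 38 UMIs in 4 mast-like cells, 32 of them in 1 cell, Mcpt8 had 7 in 3 and Il4 had 8 in 4. Cd3g, a chain of the T cell receptor complex, had 50 UMIs in 9 mast-like cells and 0 in the macrophage-like cells, while Trac, the receptor's alpha chain constant region, had 1 UMI in cluster 20 and Cd4 had 3. Gzmb, granzyme B, had 74 and 9 UMIs in 2 mast-like cells. Ighm, the IgM heavy chain, went the other way, with 0 UMIs in the mast-like cells and 253 in 46 of the 49 macrophage-like cells (0 to 16 per cell, median 5), and 11 in the rest of the library. The B cell genes Cd79a and Pax5 were at 0, and Cd79b had 52 UMIs in 27 macrophage-like cells. The neutrophil genes S100a8, Ly6g and Camp were at 0 in cluster 20, and Prtn3 had 40 UMIs in 3 macrophage-like cells. Nearly all were in 1 cell, which held 39 of the 44 UMIs of the neutrophil list in that class. Of 3 measured dendritic cell genes 0 were higher.

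The macrophage-like cells were not alike. Genes of resident tissue macrophages were strong: of 13 measured, 11 were higher in cluster 20 and 0 lower. Pf4, a chemokine stored by platelets and made by embryonic macrophages, had 0 UMIs in the mast-like cells and 2528 in 47 macrophage-like cells (0 to 139 per cell, median 41). Mrc1, the mannose receptor, had 0 and 695 UMIs, F13a1, a coagulation factor subunit, 0 and 549, and Stab1, a scavenger receptor, 0 and 647. Lyve1, a hyaluronan receptor of lymphatic vessels and perivascular macrophages, had 1 UMI in the mast-like cells and 453 in 29 macrophage-like cells, with 10 in the rest, a ratio for cluster 20 of 2484 (1339 to 5216). Lyve1 ranged over 0 to 49 UMIs per macrophage-like cell (median 3), so 20 of these cells had none.

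No macrophage-like cell had both a UMI of Lyve1 and at least 3 UMIs of the monocyte genes, in a split chosen after the values were seen. Genes of circulating monocytes, Ccr2 and Plac8 among them, summed to 3 to 29 UMIs in 9 macrophage-like cells (median 13), which had 0 of Lyve1, and to 0 to 2 in the 29 cells with Lyve1. The remaining 11 cells had 0 of Lyve1 and at most 2 UMIs of the monocyte genes, with any in 3 cells. Pf4 was at 0 to 11 UMIs in the 9 monocyte-gene cells (median 1), 0 to 124 in the 11 remaining cells (median 12) and 30 to 139 in the 29 Lyve1 cells (median 75). The share of all genes whose ranges also stay apart between these cells was not taken, so whether this is unusual cannot be told. Plac8 was not a monocyte gene alone here, with 77 UMIs in 8 mast-like cells and 38 in 7 macrophage-like cells. Stab1 was at 0 to 7 UMIs in the monocyte-gene cells and 6 to 29 in the Lyve1 cells, and Gas6, a bridging ligand for dying cells, at 0 to 5 and 3 to 19. Cd52 went the other way, at 0 to 27 UMIs in the monocyte-gene cells (median 9) and 0 to 2 in the Lyve1 cells. Summed C1q UMIs were 9 to 114 (median 45) in the monocyte-gene cells and 60 to 189 (median 103) in the Lyve1 cells. Median depth was 21974 UMIs in the monocyte-gene cells, 13956 in the remaining cells and 17277 in the Lyve1 cells, and its part in these differences was not tested.

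**Figure D4:**
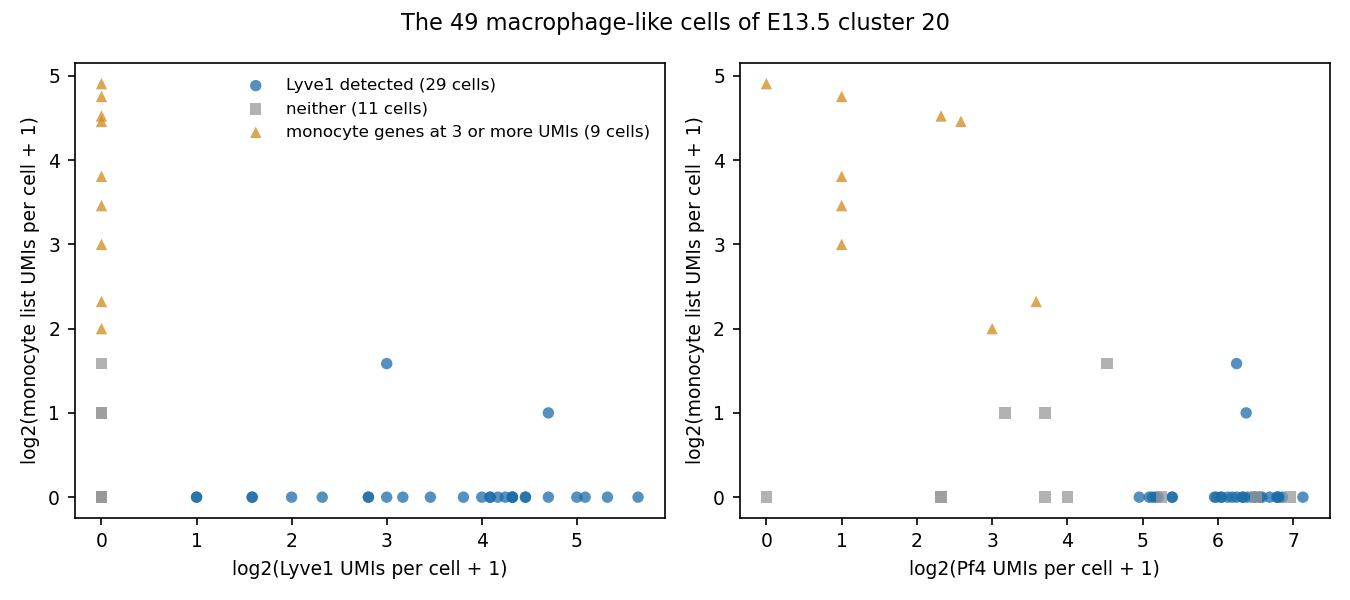
Each point is a macrophage-like cell, with log2(UMIs + 1) of Lyve1 (left) or Pf4 (right) on the x axis and of the summed monocyte genes on the y axis. The 9 cells with at least 3 monocyte UMIs have 0 UMIs of Lyve1 and at most 11 of Pf4, while the 29 Lyve1 cells have 30 or more of Pf4.

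Genes associated with microglia, the macrophages of the brain, were mostly present in this jaw tissue. Of 11 measured, 9 were higher in cluster 20. Trem2, a lipid receptor, had 252 UMIs over all 49 macrophage-like cells, Fcrls 655 UMIs in 45 of them and P2ry12, a nucleotide receptor, 69 in 30. Cx3cr1, the fractalkine receptor, had 24 UMIs in 10 mast-like cells and 388 in 48 macrophage-like cells. Tmem119 and Olfml3 were not higher, with ratios of 0.422 and 0.329, since the rest of the library held 4388 and 4465 UMIs of them.

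Lists of genes for sensing, uptake and digestion were measured next, of which 9 of 13 uptake receptor genes were higher and 0 lower. Of 10 measured complement genes 9 were higher, among them the receptors C3ar1 (173 UMIs in cluster 20 and 6 in the rest) and C5ar1 (116 and 5). All 14 measured innate receptor genes were higher, including Cd14, the endotoxin co-receptor, with 142 UMIs and 91 in the rest, and the RNA sensor Tlr7 with 20 and 3. Tlr7 thus reached the minimum of 10 UMIs only through cluster 20. Of 22 lysosome genes 12 were higher, led by Ctss (591 and 22 UMIs), with the proteases Lgmn and Ctsc 35.5-fold (32.9 to 38.3) and 33.5-fold (29.9 to 37.5) above the rest. Apoe, a lipid carrier, stood at 231 CPM in the mast-like cells, 6428 CPM in the macrophage-like cells and 41.6 CPM in the rest. Iron handling was split, with the haem oxygenase Hmox1 5.19-fold (4.45 to 6.02) and the iron exporter Slc40a1 20.4-fold (15.3 to 26.9) above the rest, and the ferritin chains Ftl1 and Fth1 2.87-fold and 2.88-fold above it, under the 4-fold limit.

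Of 6 measured genes of class II antigen presentation 3 were higher, and the list stood at 92.4 CPM in cluster 20 and 13.3 CPM in the rest (6.97-fold, 5.68 to 8.49), on 113 UMIs. H2-Aa and H2-Ab1, the chains of the peptide-presenting molecule, were at 0 UMIs in all 73 cells, where the floor is 2.45 CPM. H2-Eb1 had 1 UMI. Cd74, the invariant chain, had 0 UMIs in the mast-like cells and 49 in 20 macrophage-like cells, and H2-DMa, which loads peptide, had 1 and 54.

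All 12 measured cytokine and chemokine genes were higher in cluster 20. Ccl2, Ccl7 and Ccl12, which attract monocytes, had 0 UMIs in the mast-like cells and 151, 74 and 223 in the macrophage-like cells. Ccl24, which attracts eosinophils, had 0 and 301, in 37 macrophage-like cells. Others rested on few cells: 80 UMIs of Ccl4 were in 4 cells and 103 of the 109 UMIs of Spp1, osteopontin, in 10. Among 14 measured growth factor genes 5 were higher and 3 lower, beside 6.37% higher and 15.2% lower over all genes, so the lower share is near that of all genes. Tgfb1 was at 245 CPM in the mast-like and 326 CPM in the macrophage-like cells, and 17.9-fold above the rest in cluster 20 (15.8 to 20.1), whereas Pdgfa had 4 UMIs in cluster 20 and 5701 in the rest, a ratio of 0.0382 (0.0104 to 0.0979). Igf1 had 68 UMIs in cluster 20, a ratio of 0.713 (0.553 to 0.906).

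Of 18 measured transcription factor genes 11 were higher and 3 lower in cluster 20, and the lower share is again near the 15.2% of all genes. Irf8, which directs monocyte and macrophage fate, had 0 UMIs in the mast-like cells and 108 in 38 macrophage-like cells, and Cebpb, a myeloid regulator, had 7 and 247. Ikzf1, a lymphoid and myeloid regulator, was at 98.2 CPM in the mast-like cells and 25.6 CPM in the macrophage-like cells (3.83-fold, 1.98 to 7.36). Among the lower genes were Id3, at 26 UMIs and 25980 in the rest (0.0545, 0.0356 to 0.0799), and Klf4, at 4 and 1683 (0.129, 0.0352 to 0.332). Of 15 measured genes that respond to dissociation 3 were higher and 0 lower in cluster 20, beside 6.37% and 15.2% of all genes, with a median log2 ratio of −0.08. Fos was among the 3, with 36 UMIs in 10 cells, 13 of them in 1 mast-like cell, and Jun stood at 0.621 of the rest.

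By the named-gene rule, the 20 genes with the highest ratios to the rest ran over ratios of 1501 to 5557. The highest was Lrrc25, a leucine-rich repeat protein of leukocytes, with 102 UMIs in cluster 20 and 1 in the rest (975 to 221613). Of these 20 genes 13 had at least 90% of their UMIs in macrophage-like cells, 11 were at 0 in the mast-like cells, and 3 were of the Ms4a family of membrane proteins (Ms4a6b, Ms4a6d and Ms4a7). Cd86, a co-stimulatory ligand, had 52 UMIs, and Ccr1, a chemokine receptor, 96. Of the 10 genes with the lowest ratios 6 were at 0 in cluster 20, among them Tpbg, Hand2, Bmp4 and Cthrc1, at least 30.5-fold, 27.8-fold, 24.7-fold and 23.3-fold lower against the floor of 3 UMIs. Myod1, the muscle regulator, had 2 UMIs in cluster 20 and 8498 in the rest.

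The cells of cluster 20 were often in cycle. By the authors' phase calls 78.1% of cluster 20 (57 of 73, 66.9 to 86.9%) and 49.3% of the rest (48.1 to 50.6%) were in S or G2M, with 81.8% of the mast-like cells (9 of 11, 48.2 to 97.7%) and 79.6% of the macrophage-like cells (39 of 49, 65.7 to 89.8%). Depth moved with this share. Among cells of 13956 to 20948 UMIs, 80.0% of macrophage-like cells (20 of 25, 59.3 to 93.2%) and 73.3% of the rest (667 of 910, 70.3 to 76.1%) were in S or G2M, so a difference was not detectable at matched depth. After thinning, 47.1% of cluster 20 (35.1 to 59.4%) and 26.4% of the rest (25.3 to 27.6%) held a UMI of Mki67 or Top2a, 2 genes of dividing cells. At 1000 UMIs per cell the shares were 28.8% (18.8 to 40.6%) and 18.2% (17.2 to 19.2%), whose intervals overlap, and without thinning 79.5% and 44.3%. None of the 42 S phase or 52 G2M genes was 4-fold higher or lower, and their median log2 ratios were 0.03 and 0.20. Within the macrophage-like cells, 9 of the 9 monocyte-gene cells (66.4 to 100%) and 22 of the 29 Lyve1 cells (75.9%, 56.5 to 89.7%) were in S or G2M. Among the 11 remaining macrophage-like cells 8 were (72.7%, 39.0 to 94.0%). Median depths of these 3 groups were 21974, 17277 and 13956 UMIs, and the part of depth here was not tested.

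The ligands of the receptors above were found in other tissues of the same library. Csf1 was at 5.71 CPM in mesenchyme (4.94 to 6.57) and 5.36 CPM in endothelium (2.31 to 10.6), with 2 UMIs in the macrophage-like cells, and Il34 had 15 UMIs in mesenchyme and 6 in epithelium. Kitl, the ligand of Kit, was at 44.2 CPM in endothelium (34.2 to 56.2) and 9.97 CPM in mesenchyme (8.94 to 11.1). Tnfsf11, the ligand RANKL, had 74 UMIs in mesenchyme, 2.16 CPM (1.69 to 2.71), and at most 3 UMIs in any other class. Cx3cl1 was at 7.36 CPM in endothelium (3.68 to 13.2) and 4.43 CPM in epithelium (3.26 to 5.89). Gas6 was the reverse, at 377 CPM in the macrophage-like cells (337 to 421) and 32.1 CPM in endothelium (23.7 to 42.6), the next highest class.

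At E11.5 the same limit of 20 marker UMIs gave 13 macrophage-like cells, of which 12 lay in cluster 13, named endothelial by the authors, and 1 in cluster 9, named ectoderm. They had 22 to 126 macrophage marker UMIs, and no other E11.5 cell had more than 10. Macrophage-like cells were 0.776% of the E13.5 cells (0.574 to 1.02%) and 0.183% of the E11.5 cells (0.0975 to 0.313%), in libraries that were not filtered to the same limits. There was 1 mast-like cell at E11.5, with 37 UMIs of Cpa3, 16 of Hdc and 5 of Gata2, and no osteoclast-like cell. For these classes the sets held fewer genes than at E13.5. The mast cell set was Cpa3, Kit, Hdc and Gata2, without Cma1, the tryptases and Ms4a2, and the osteoclast set lacked Dcstamp, Atp6v0d2 and Calcr. Of these Atp6v0d2 had 66 UMIs in the E13.5 osteoclast-like cells. The same limit was thus harder to reach, also because the E11.5 library was shallower, and the numbers of these cells are not like for like.

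Of 16 macrophage genes 6 had an interval above 1 for E13.5 over E11.5 and 0 below. Of 11 resident macrophage genes listed at both stages 6 had an interval above 1 and 0 below. No share over all genes was taken between the stages, so whether these counts are unusual cannot be told. The 16 macrophage genes also selected the macrophage-like cells at both stages, by the same UMI limit at different depths. Their levels by stage are therefore a description. C1qb was at 2192 CPM in E13.5 and 2110 CPM in E11.5 macrophage-like cells (1.04-fold, 0.905 to 1.20), C1qc at 1652 and 1656 CPM (0.997-fold, 0.853 to 1.17) and Csf1r at 468 and 370 CPM (1.26-fold, 0.912 to 1.80), while C1qa was at 1341 and 990 CPM (1.35-fold, 1.11 to 1.67). Cd14 was 3.47-fold (1.45 to 10.9), Fcgr1 1.96-fold (1.27 to 3.16), Maf 1.57-fold, Fcgr3 1.43-fold and Lyz2 1.33-fold higher at E13.5. Hpgds was at 430 and 407 CPM (1.06-fold, 0.770 to 1.48), and Ighm at 295 and 268 CPM (1.10-fold, 0.746 to 1.67). Pf4 was at 2943 CPM at E13.5 and 185 CPM at E11.5, 15.9-fold higher (10.3 to 26.1). Per cell Pf4 had 0 to 139 UMIs at E13.5 (median 41) and 0 to 4 at E11.5 (median 1), and the E11.5 cells were shallower, with a median of 17706 UMIs at E13.5 and 7918 at E11.5. Gas6 was 4.08-fold, F13a1 3.84-fold (2.41 to 6.52), Stab1 2.63-fold and Mrc1 1.71-fold higher at E13.5. Sepp1, a selenium carrier, stood at 0.984 (0.841 to 1.16) and Igf1 at 1.66 (0.677 to 5.28), while Fabp5, a fatty acid carrier, was at 167 and 546 CPM (0.305-fold) and Cd52 at 197 and 352 CPM (0.560-fold, 0.392 to 0.818). Haemoglobin moved with stage too, with Hbb-y at 502 CPM in the E13.5 and 7912 CPM in the E11.5 macrophage-like cells, and its part in these values was not tested. Lyve1, Cma1 and the tryptases have no E11.5 values here, so they could not be compared between stages.

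**Figure D5:**
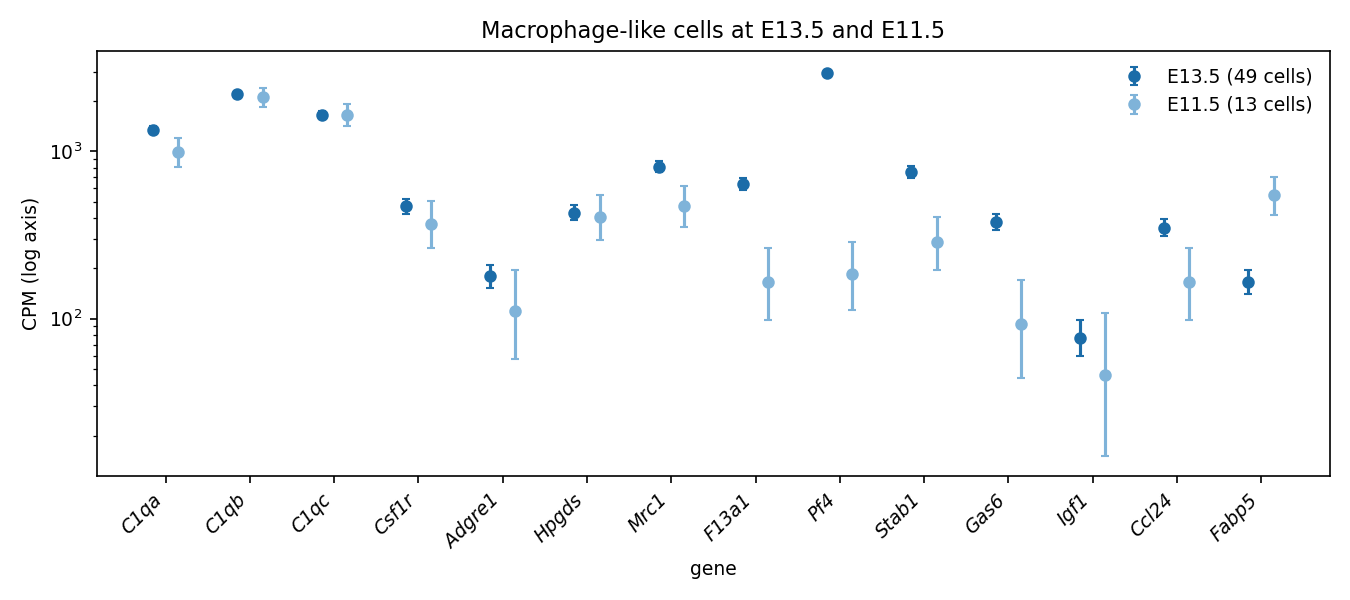
Points give the CPM of summed UMIs (log axis) of 14 genes in the 49 macrophage-like cells of E13.5 and the 13 of E11.5, with exact Poisson 95% intervals that cover counting error only. C1qb, C1qc and Hpgds stand close, and Pf4 is 15.9-fold higher at E13.5.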

How the data were processed

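The authors deposited UMI counts per gene and cell for both libraries and a table of cells with their cluster, class name, cell cycle phase and cell cycle scores. The authors' deposited mitochondrial share is a fraction of a cell's UMIs, and their phase scores set the S and G2M calls used here. Cell Ranger 2.0.0, Seurat 2.3.4 and mm10 are named in the submitters' processing notes, with roles not given in the sources used here. Whether doublets were removed is not given there either, so all cells were kept and no caller was run. The libraries share 71 cell barcodes, 0 of them in cluster 20.

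UMIs were summed per group and compared as CPM ratios with exact intervals of the counts (scipy 1.17.1 and numpy 2.4.6 for the intervals, pandas 2.3.3 for the tables and matplotlib 3.10.9 for the plots, under Python 3.11.15), a step checked on simulated data. The members and the 34 gene lists (446 genes, 393 of them among the 17775 genes listed at E13.5) were chosen with earlier results of these data known. Genes named beyond the lists were the 20 highest ratios with at least 50 UMIs in at least 25% of cells, the 10 lowest, and 12 leading genes per class with at least 20 UMIs. Thinning used a fixed random seed. Promoters came from RefSeq (GRCm38.p6) and gene positions from GENCODE on GRCm38. Alternatives changed the cells compared, the count minimum, the weighting, the class limit and the thinning. Some genes of the lists are not reported here by name.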

Additional observations from a re-analysis of the deposited data

How the results depend on the processing

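Of 71 alternative values, 58 moved by less than their counting interval or within 1.5-fold for counts, 13 moved further and 0 reversed. The summed macrophage ratio of 144 became 137 when the rest was taken without the erythroid cluster and cluster 8, 133 with the other clusters weighted equally and 123 as a mean of per-cell CPM. With only macrophage-like cells, an alternative chosen after seeing the data, it was 199.5 and the summed mast cell ratio of 126 was 36.1, since Hpgds is on that list. The count of lower genes, 1268, was 350 with at least 50 UMIs, where fewer genes were considered, and 1933 with no minimum. The shares of cells with a UMI moved with thinning in 6 of 18 alternatives: Csf1r was found in 21.9% of cluster 20 at 1000 UMIs per cell, 48.6% at 2000 and 74.0% without thinning. Without the haemoglobin-rich mast-like cell, also chosen after seeing the data, 1028 genes were higher and 1239 lower. A limit of 10 marker UMIs gave 11 mast-like, 51 macrophage-like and 5 osteoclast-like cells, 30 gave 11, 49 and 4, and 0.1% of a cell's UMIs, chosen after seeing the data, gave 11, 54 and 5. No paired analysis was possible because there is 1 library per stage and no test was made. Of the 9 unassigned cells 5 had under 4000 UMIs, and the mast-like and osteoclast-like classes rest on 11 and 4 cells.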

Other observations

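Interferon-induced genes were uneven in cluster 20. Of 8 measured, 4 were higher than in the rest by the 4-fold rule, among them Bst2, Irf7 and Isg15. Bst2, a tether of viral particles, had 183 UMIs and stood 16.9-fold above the rest, while Irf7 had 7 UMIs and Isg15 had 6.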
